A study of Saccharomyces cerevisiae BY4741 with 24 samples.

Results

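The genes described here encode the RNA polymerase I and III machinery of budding yeast: 36 genes, of 5449 Saccharomyces cerevisiae genes measured, chosen by name as members of either polymerase, of its promoter-binding factors or of its regulator Maf1. They comprise 7 subunits of RNA polymerase I, 2 subunits that polymerases I and III share, 10 subunits of RNA polymerase III, the initiation factor RRN3, 3 genes of the core factor, 4 of the upstream activating factor, 6 of TFIIIC, 2 of TFIIIB and the repressor MAF1. Each of the 36 was measured by 1 probe set of its own. The samples were cultures of strain BY4741 in liquid YPD, a rich medium, with either 2% glucose (control) or 0.5% glucose, the level used as caloric restriction. Every culture started at the same low density, was shaken at 30 °C and was harvested 12, 18, 24 or 48 h after inoculation. The 8 groups of 3 biological replicates gave 24 Affymetrix yeast arrays, and the series set out to follow expression over the hours in which glucose restriction extends chronological lifespan. All groups share 1 strain, and the labels give no cell densities at harvest, so glucose level and growth phase at a given hour cannot be told apart.

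RNA polymerase I transcribes the long ribosomal RNA precursor from the tandem rDNA repeats. The upstream activating factor and the core factor bind the rDNA promoter, and Rrn3 joins the polymerase to them. RNA polymerase III transcribes transfer RNAs, the smallest ribosomal RNA and other short RNAs; TFIIIC recognises sequences inside those genes and places TFIIIB, which recruits the polymerase, and Maf1 represses it when nutrients run short or cells are stressed. Making ribosomes is among the costliest activities of a growing yeast cell, and both polymerases slow when growth slows. The arrays measure the messenger RNAs of these proteins, not the activity of the polymerases.

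Values are on a log2 scale, so that 1 unit is a 2-fold difference, and levels are not compared between genes because probe sets differ in response. All 36 genes lay above background in all 8 groups, with group means between 2.64 and 8.98, where background is the 95th percentile (2.29) of 1746 probe sets for the fission yeast Schizosaccharomyces pombe on the same array. The genes deleted in this strain, URA3 and MET17, read at most 1.47 and 2.09 in any group, below that background, while LEU2 reached 2.54 in 0.5% glucose at 18 h and HIS3 read 4.72 to 5.36. The a-mating-type gene STE2 read 6.66 to 9.34, but the alpha-type gene STE3, which an a strain carries but should not express, was also above background at 3.42 to 5.93. Every array had nearly the same distribution of values, so each difference is relative to the other transcripts of that array, and less messenger RNA per cell or fewer cells expressing a gene cannot be told apart. A second scale is given by 12 probe sets for poly-A control transcripts: on that spike-in scale the median of all genes in 0.5% against 2% glucose was, in order of time, 0.35, 0.16, 0.27 and -0.41, against -0.05, 0.00, 0.00 and 0.08 on the deposited scale. Differences below are 0.5% minus 2% glucose, or later minus earlier, with the standard error of the fit and 3 arrays per group, and a gene is called higher or lower at an adjusted p under 0.05 (limma, Benjamini-Hochberg over all 5449 genes).

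On the deposited scale the machinery as a whole differed most at 48 h. At 12 h, 12 of the 36 genes were higher in 0.5% glucose and 9 lower, where 32.2% of all genes were called higher and 41.2% lower. At 18 h 3 were higher and 14 lower (25.5% and 24.8% of all genes), and at 24 h 6 were higher and 16 lower (31.6% and 31.4%). At 48 h 26 were higher and 8 lower (46.0% and 37.8%), and 9 of the 26 exceeded 2-fold, as did 475 of all 5449 genes. The median difference of the 36, in order of time, came to 0.00, -0.06, -0.14 and 0.58. On the spike-in scale, using the group means of the control probe sets, the counts of higher and lower genes were 27 and 1 at 12 h, 9 and 6 at 18 h, 13 and 6 at 24 h and 16 and 10 at 48 h, and the median of the 36 was 0.40 at 12 h and 0.086 at 48 h. The balance of the calls at all 4 times, and the time of the largest median, thus depend on the scale. Adjusted p-values on the spike-in scale use those group means unless stated. They leave out the error of the control means, which was 0.11 to 0.26 between groups. Calls that kept their sign but were lost by these group means were those of RPC37, RRN3, RRN6 and UAF30 at 12 h, of RPA14, RPC34, RPC40, RRN3, RRN7, BRF1, BDP1 and MAF1 at 18 h, of RPC37, RRN3, TFC3, TFC6 and BDP1 at 24 h, and of RPC11, RRN3, RRN7 and RRN9 at 48 h. Subtracting the mean of each array's own control probe sets lost far more, 129 of the 220 calls over all 10 comparisons. Among those lost were RPO31 at 18, 24 and 48 h, RET1 at 48 h, and RPC19 and RRN11 at 18 and 24 h.

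**Figure D1:**
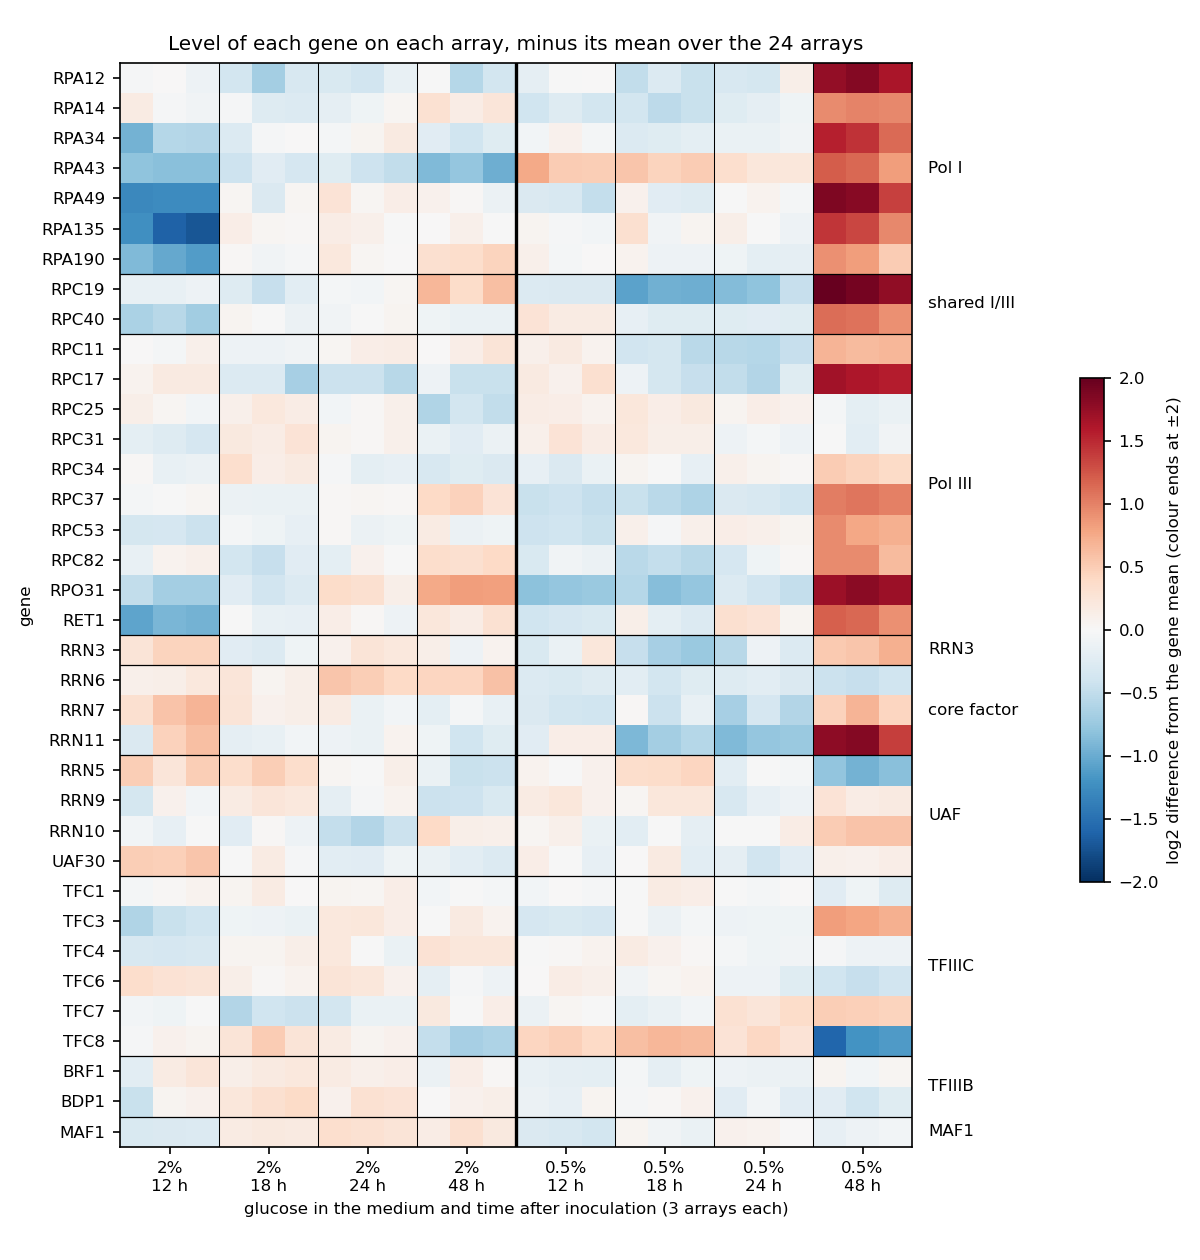
Level of each of the 36 genes (rows, by complex) on each of the 24 arrays (columns, 3 per glucose level and time), minus that gene's mean over the arrays (log2, colour, ending at ±2). Of the 36 genes, 23 have their highest group mean in 0.5% glucose at 48 h, and 6 have their lowest there, counts that were not made over all genes.

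The glucose effect of most genes differed between times, as it did for most genes of the array. By an F test of whether the glucose effect was the same at the 4 times, 34 of 36 genes differed between times, where 91.7% of all genes did; TFIIIB subunit BRF1 (adjusted p = 0.091) and TFIIIC subunit TFC1 (adjusted p = 0.15) did not pass. Over 12, 18 and 24 h alone, without the 48 h arrays, 24 of 36 passed the same test, where 70.7% of all genes did, a share near that of the members. Called differences ran in both directions for 16 genes, upward only for 13 and downward only for 7. RPA43 was higher in 0.5% glucose at all 4 times and RRN6 was lower at all 4; on the spike-in scale RPA43 kept its sign throughout, whereas RRN6 came to -0.02 at 12 h (adjusted p = 0.746) and lost that call. Across the 8 groups, 23 genes had their highest mean in 0.5% glucose at 48 h and 9 had their lowest in 2% glucose at 12 h. Neither these counts nor those of direction were made over all genes, so they are not read as particular to the machinery.

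Among the complexes, the RNA polymerase I subunits had the largest median difference at 12 h and at 48 h. At 12 h 5 of 7 were higher (32.2% of all genes), with a median difference of 0.91, and 1, RPA14, was lower (41.2%), though RPA14 turned to 0.04 on the spike-in scale. At 18 and 24 h only RPA43 was higher (25.5% and 31.6% of all genes), and 1 subunit was lower at each time (24.8% and 31.4%), RPA14 at 18 h and RPA190 at 24 h, where RPA190 turned to 0.03 on the spike-in scale. At 48 h all 7 were higher (46.0% of all genes), with a median of 1.67, although RPA190 turned to -0.11 on the spike-in scale. Of the 7, 5 were past 2-fold, as were 475 of all 5449 genes.

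RPA190 encodes the largest, catalytic subunit. In 2% glucose its 3 arrays read 6.73, 6.59 and 6.50 at 12 h, then 7.64, 7.55 and 7.60 at 18 h, 7.83, 7.66 and 7.63 at 24 h, and 7.94, 7.97 and 8.07 at 48 h. In 0.5% glucose they read 7.72, 7.58 and 7.62 at 12 h, 7.69, 7.52 and 7.52 at 18 h, 7.54, 7.42 and 7.44 at 24 h, and 8.53, 8.46 and 8.13 at 48 h. The control was low at 12 h alone, and the restricted cultures were level until they moved up at 48 h, with no overlap between glucose levels at 12, 24 or 48 h. The difference was 1.03 ± 0.08 at 12 h (adjusted p = 3.53e-10) and 0.38 ± 0.08 at 48 h (adjusted p = 0.000246), and at 24 h it was -0.24 ± 0.08 (adjusted p = 0.0168), a call lost without replicate 1 of the 2% glucose arrays (adjusted p = 0.0984) or replicate 2 of the 0.5% glucose arrays (adjusted p = 0.0599).

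RPA135, the second-largest subunit, was also apart at 12 and 48 h. The control arrays read 5.49, 5.09 and 5.0 at 12 h and lay between 6.70 and 6.86 on all 9 later arrays. The restricted arrays read 6.77, 6.69 and 6.66 at 12 h, lay between 6.61 and 7.04 at 18 and 24 h, and read 8.15, 8.05 and 7.67 at 48 h. The glucose levels overlapped at 18 and 24 h alone. The difference was 1.51 ± 0.12 at 12 h (adjusted p = 1.43e-10) and 1.21 ± 0.12 at 48 h (adjusted p = 2.71e-09).

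RPA43, part of the stalk that contacts Rrn3, was the subunit that was higher at every time. Control arrays read 3.93, 3.90 and 3.89 at 12 h, 4.32, 4.50 and 4.39 at 18 h, 4.49, 4.32 and 4.23 at 24 h and 3.84, 3.95 and 3.76 at 48 h. Restricted arrays read 5.48, 5.24 and 5.22, then 5.28, 5.17 and 5.24, then 5.07, 4.95 and 4.95, and 5.94, 5.88 and 5.57 at the same times. The lowest restricted array of any time (4.95) lay above the highest control array (4.50). The differences were 1.41 ± 0.09, 0.82 ± 0.09, 0.64 ± 0.09 and 1.95 ± 0.09 in order of time, with adjusted p = 1.3e-06 for the smallest. Its stalk partner RPA14 moved otherwise, at -0.36 ± 0.07 at 12 h, -0.26 ± 0.07 at 18 h and 0.74 ± 0.07 at 48 h, and its 18 h call was lost without control replicate 1 (adjusted p = 0.0509).

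RPA43 and RPA190 are the 1 pair of the 36 genes that lie next to each other in the RefSeq annotation of the genome, as YOR340C and YOR341W on opposite strands, and the 36 are spread over 11 chromosomes. The array shows these neighbours with different courses: at 18 h RPA43 differed by 0.82 ± 0.09 and RPA190 by -0.02 ± 0.08 (adjusted p = 0.851).

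RPA12, a small subunit needed for transcript cleavage and termination, was called at 48 h alone. Its control arrays read 4.09, 4.12 and 4.01 at 12 h, 3.74, 3.44 and 3.80 at 18 h, 3.81, 3.73 and 3.97 at 24 h and 4.10, 3.55 and 3.75 at 48 h. Its restricted arrays read 3.94, 4.10 and 4.13, then 3.62, 3.84 and 3.67, then 3.79, 3.76 and 4.23, and 5.88, 5.95 and 5.74 at 48 h. The 3 restricted arrays at 48 h stood apart from the other 21, by 2.06 ± 0.13 or 4.16-fold over the control (adjusted p = 1.22e-12), the largest difference of the 36 genes at that time.

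RPA49 and RPA34 form a heterodimer that aids initiation and elongation. RPA49 read 3.92, 3.95 and 3.95 in the control at 12 h, against 4.93, 4.89 and 4.73 in 0.5% glucose, and 5.30, 5.24 and 5.10 in the control at 48 h, against 7.08, 7.03 and 6.58. Both genes of the pair were higher at these 2 times, RPA49 by 0.91 ± 0.11 and 1.69 ± 0.11 and RPA34 by 0.69 ± 0.10 and 1.67 ± 0.10, and neither passed the test at 18 or 24 h.

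**Figure D2:**
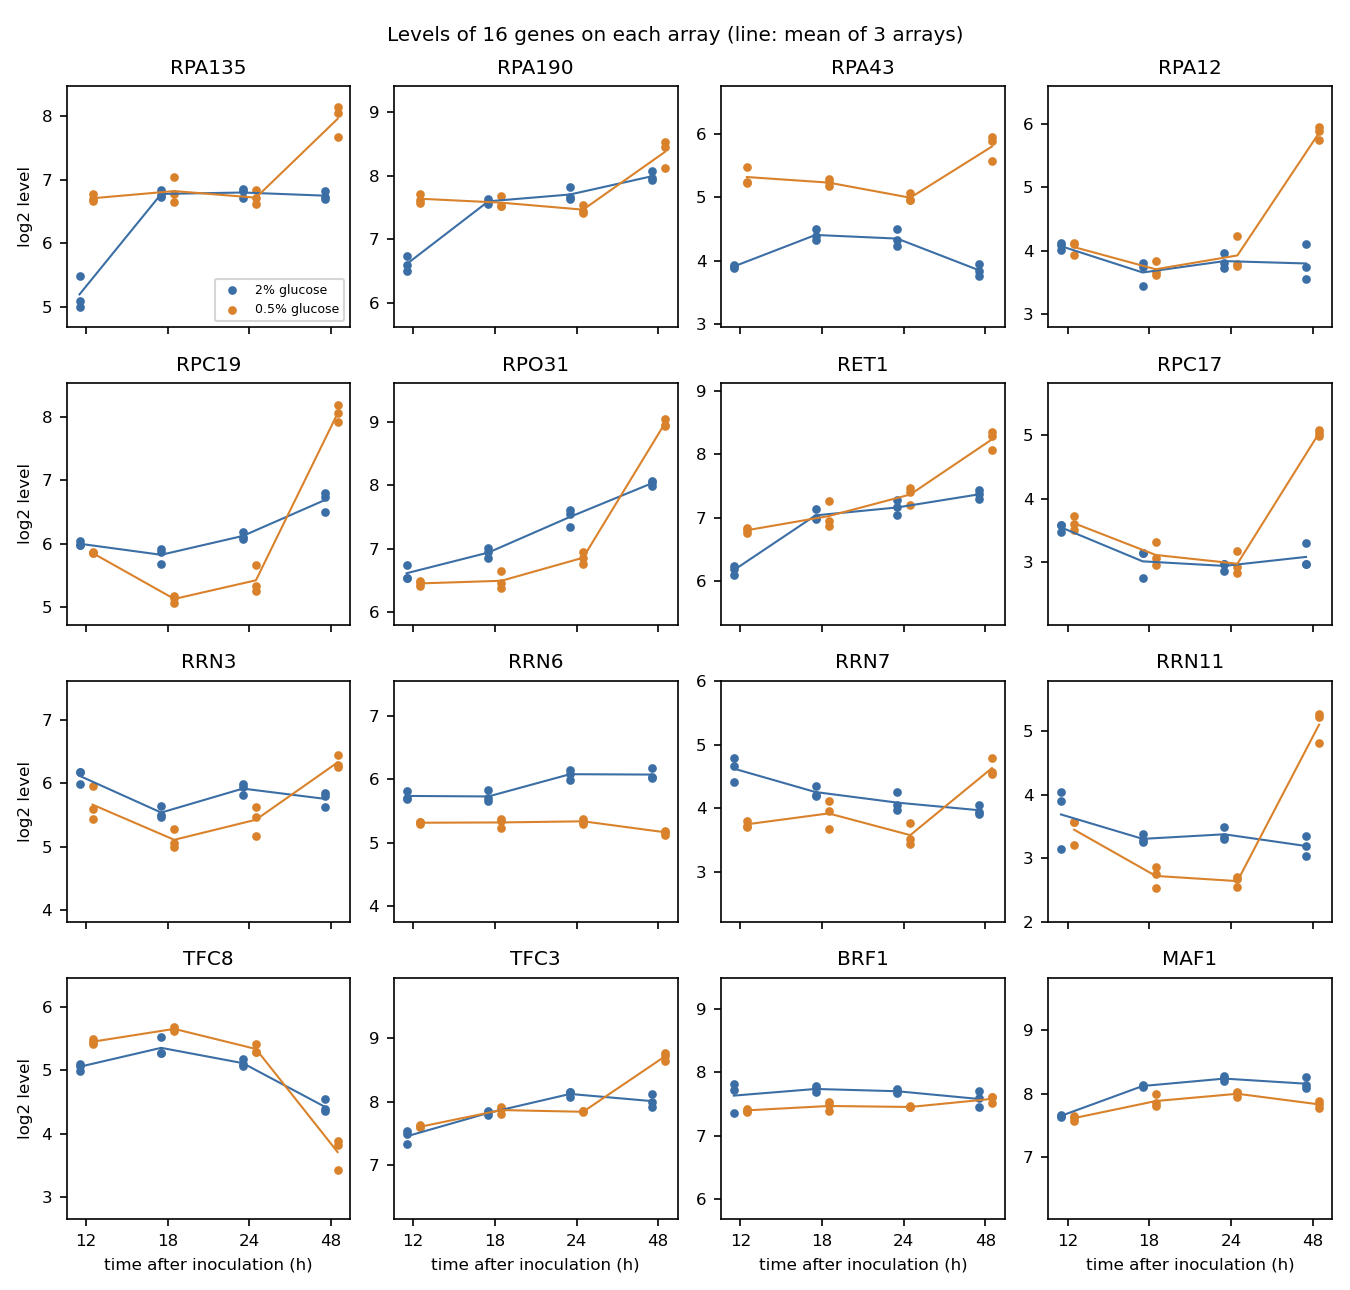
Level (log2) of 16 genes against time after inoculation (12, 18, 24 and 48 h, evenly spaced) in 2% and 0.5% glucose; points are single arrays and lines join means of 3 arrays, and every panel spans the same number of log2 units. RPA43 is higher in 0.5% glucose at every time, while RPA135 is apart at 12 and 48 h only.

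RPC40 and RPC19, the pair on which both polymerases are assembled, were lower in 0.5% glucose at 18 and 24 h and higher at 48 h, except that RPC40 turned to 0.03 on the spike-in scale at 24 h. RPC19 read 5.87, 5.68 and 5.92 in the control at 18 h against 5.06, 5.17 and 5.15 in 0.5% glucose, and 6.10, 6.08 and 6.18 against 5.26, 5.33 and 5.67 at 24 h. At 48 h the order had turned, with 6.80, 6.50 and 6.74 in the control against 8.19, 8.05 and 7.91. The groups did not overlap at any of these 3 times, and the differences were -0.70 ± 0.09 at 18 h, -0.70 ± 0.09 at 24 h and 1.37 ± 0.09 at 48 h (adjusted p = 5.81e-12). RPC40 differed by 0.84 ± 0.05, -0.20 ± 0.05, -0.23 ± 0.05 and 1.17 ± 0.05 in order of time, and had the largest F statistic of the 36 genes for a glucose effect that changes with time (adjusted p = 9.8e-14). At 12 h RPC19 was at -0.15 ± 0.09 (adjusted p = 0.155), so the partners were not called alike there.

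The 10 subunits of RNA polymerase III had small median differences before 48 h, at 0.01, -0.11 and -0.03 in order of time. Single subunits lay between -0.64 and 0.63 at those times. At 12 h 2 were higher and 1 lower (32.2% and 41.2% of all genes), and at 18 h 4 were lower (24.8%). At 24 h 2 were higher and 4 lower (31.6% and 31.4%), near those shares, with RPC31 among the 4 turning to 0.12 on the spike-in scale. At 48 h 9 of 10 were higher (46.0% of all genes) with a median of 0.69, against 1.67 for the RNA polymerase I subunits, and RPC25 (-0.12) and RPC82 (-0.01) turned on the spike-in scale. RPC31 was the exception at 48 h, at 0.06 ± 0.06 (adjusted p = 0.331). It was called lower there by the group means of the spike-ins (-0.43, adjusted p = 2.65e-07) but not with each array's own control mean.

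RPO31 encodes the largest, catalytic subunit. Its control arrays read 6.75, 6.55 and 6.55 at 12 h, 7.01, 6.86 and 6.96 at 18 h, 7.61, 7.55 and 7.35 at 24 h and 7.99, 8.07 and 8.05 at 48 h. Its restricted arrays read 6.42, 6.46 and 6.49, then 6.66, 6.38 and 6.46, then 6.96, 6.86 and 6.76, and 8.95, 9.04 and 8.94 at 48 h. The control moved up at each time while the restricted cultures stayed below it to 24 h and above it at 48 h. The differences were -0.16 ± 0.07 at 12 h (adjusted p = 0.057, or 0.0379 with the replicate number as a block), -0.44 ± 0.07 at 18 h, -0.64 ± 0.07 at 24 h and 0.94 ± 0.07 at 48 h (adjusted p = 9.88e-11).

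RET1, the second-largest subunit, was apart at 12 and 48 h, as RPA135 was. Control arrays read 6.09, 6.23 and 6.19 at 12 h, 7.13, 6.99 and 6.98 at 18 h, 7.27, 7.16 and 7.04 at 24 h and 7.37, 7.29 and 7.44 at 48 h. Restricted arrays read 6.75, 6.81 and 6.84, then 7.26, 6.94 and 6.87, then 7.47, 7.41 and 7.20, and 8.34, 8.29 and 8.06. The glucose levels were apart at 12 h (0.63 ± 0.09, adjusted p = 2.78e-06) and at 48 h (0.87 ± 0.09, adjusted p = 1.38e-08). At 24 h RET1 was at 0.20 ± 0.09 (adjusted p = 0.059, or 0.0361 with the replicate number as a block).

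RPC17, which with RPC25 forms the stalk, read 3.31, 2.97 and 2.97 in the control and 5.09, 5.03 and 4.99 in 0.5% glucose at 48 h. All 18 earlier arrays lay between 2.75 and 3.73, so the restricted 48 h arrays stood alone, by 1.95 ± 0.11 or 3.87-fold over the control (adjusted p = 4.43e-13). That control level was not far above the background of 2.29. Its partner RPC25 read 4.47, 4.71 and 4.58 in the control and 5.03, 4.88 and 4.94 in 0.5% glucose at 48 h, a difference of 0.37 ± 0.06. RPC25 had fallen from 24 to 48 h in both, by 0.50 on the log2 scale in 2% glucose and by 0.21 in 0.5% glucose.

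RPC37 and RPC53 form a heterodimer that acts in initiation and termination, and the partners had different calls. RPC37 was at -0.44 ± 0.05, -0.41 ± 0.05 and -0.36 ± 0.05 at 12, 18 and 24 h and at 0.66 ± 0.05 at 48 h, all called. RPC53 read 5.28, 5.30 and 5.20 in the control at 12 h, 5.59, 5.54 and 5.47 at 18 h, 5.66, 5.52 and 5.55 at 24 h and 5.79, 5.52 and 5.54 at 48 h, against 5.22, 5.23 and 5.19, then 5.73, 5.61 and 5.73, then 5.76, 5.74 and 5.68, and 6.57, 6.40 and 6.34. It was not called at 12 h, was at 0.16 ± 0.07 at 18 h (adjusted p = 0.0537, or 0.0173 with the replicate number as a block), was called at 24 h by 0.15 ± 0.07 (adjusted p = 0.0494), a call lost on leaving out any of 4 of the 6 arrays compared, and was higher at 48 h by 0.82 ± 0.07. RPC11, the subunit for cleavage and termination, was lower at 18 h (-0.33 ± 0.06) and 24 h (-0.63 ± 0.06) and higher at 48 h (0.52 ± 0.06).

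RPC82, RPC34 and RPC31 make up the subcomplex that contacts TFIIIB. RPC34 read 5.76, 5.56 and 5.60 in the control at 18 h and 5.40, 5.22 and 5.25 at 24 h, while the restricted arrays read 5.47, 5.41 and 5.26 and then 5.52, 5.48 and 5.45. The order of the glucose levels turned between these times, from -0.26 ± 0.07 to 0.19 ± 0.07, and the second call was lost without replicate 2 (adjusted p = 0.0763) or 3 (adjusted p = 0.0517) of the control or replicate 1 (adjusted p = 0.0531) of the restricted arrays. RPC31 was called only at 12 h (0.44 ± 0.06) and 24 h (-0.15 ± 0.06), and the 24 h call was lost without control replicate 3 (adjusted p = 0.092) or restricted replicate 1 (adjusted p = 0.0683) or 3 (adjusted p = 0.0671). RPC82 was called only at 48 h (0.48 ± 0.10), with 6.33, 6.31 and 6.38 in the control against 6.93, 6.93 and 6.61.

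RRN3 encodes the factor that makes RNA polymerase I competent to initiate. Control arrays read 5.99, 6.17 and 6.18 at 12 h, 5.50, 5.46 and 5.64 at 18 h, 5.81, 5.99 and 5.94 at 24 h and 5.84, 5.62 and 5.80 at 48 h. Restricted arrays read 5.43, 5.59 and 5.96, then 5.27, 5.06 and 4.99, then 5.17, 5.63 and 5.46, and 6.25, 6.28 and 6.44. Glucose-restricted cultures were below the control at the first 3 times and above it at 48 h, with no overlap at any time. The differences were -0.45 ± 0.12 (adjusted p = 0.00155), -0.43 ± 0.12 (adjusted p = 0.00435), -0.49 ± 0.12 (adjusted p = 0.00103) and 0.57 ± 0.12 (adjusted p = 0.00012). All 4 RRN3 calls were lost on the spike-in scale, with differences of -0.05 (adjusted p = 0.687), -0.27 (adjusted p = 0.052), -0.22 (adjusted p = 0.0879) and 0.08 (adjusted p = 0.513).

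The core factor genes were lower in 0.5% glucose before 48 h: 2 of 3 at 12 h and 3 of 3 at 18 and 24 h, where 41.2%, 24.8% and 31.4% of all genes were lower. Relative to the spike-in group means, RRN6 at 12 h (-0.02, adjusted p = 0.746) and RRN7 at 18 h (-0.18, adjusted p = 0.167) lost their calls. With each array's own control mean all of these core factor calls before 48 h were lost. At 48 h RRN11 and RRN7 were higher and RRN6 was lower. RRN6 read 5.69, 5.71 and 5.81 in the control at 12 h, 5.83, 5.65 and 5.71 at 18 h, 6.15, 6.09 and 5.99 at 24 h and 6.03, 6.02 and 6.18 at 48 h, against 5.32, 5.29 and 5.33, then 5.38, 5.23 and 5.35, then 5.33, 5.38 and 5.30, and 5.17, 5.13 and 5.19. Every restricted array lay below every control array, and the differences were -0.42 ± 0.06, -0.41 ± 0.06, -0.74 ± 0.06 and -0.91 ± 0.06 (adjusted p = 1.4e-12 at 48 h).

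RRN11 had one of the widest swings. It read 3.14, 3.90 and 4.04 in the control at 12 h, 3.26, 3.29 and 3.38 at 18 h, 3.34, 3.30 and 3.50 at 24 h and 3.35, 3.03 and 3.20 at 48 h. In 0.5% glucose it read 3.21, 3.57 and 3.57, then 2.53, 2.76 and 2.87, then 2.55, 2.67 and 2.70, and 5.22, 5.27 and 4.82. The restricted arrays were the lowest of the set at 18 and 24 h and the highest at 48 h, with differences of -0.58 ± 0.16, -0.74 ± 0.16 and 1.91 ± 0.16 (adjusted p = 4.03e-10); at 12 h the groups overlapped (-0.24 ± 0.16, adjusted p = 0.192). Without control replicate 1, the low array at 12 h, RRN11 was called lower there (-0.51, adjusted p = 0.00116), as it was with array weights (-0.36, adjusted p = 0.000596).

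RRN7, the core factor subunit related to the general factor TFIIB, read 4.42, 4.67 and 4.79 in the control and 3.81, 3.73 and 3.71 in 0.5% glucose at 12 h. At 48 h it read 3.91, 4.06 and 3.95 against 4.57, 4.79 and 4.54. The 2 glucose levels had changed places without overlap, from -0.88 ± 0.11 (adjusted p = 2.73e-07) to 0.66 ± 0.11 (adjusted p = 8.4e-06), the latter call being lost relative to the spike-ins (0.17, adjusted p = 0.144). The smaller difference at 18 h, -0.34 ± 0.11 (adjusted p = 0.0139), was lost without control replicate 1 (adjusted p = 0.0642) or restricted replicate 2 (adjusted p = 0.116).

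The 4 upstream activating factor genes were at no time all called in the same direction between glucose levels. At 12 h RRN9 was higher (0.27 ± 0.09, adjusted p = 0.00778) and RRN5 and UAF30 were lower (32.2% and 41.2% of all genes). The RRN9 call was lost without control replicate 1 (adjusted p = 0.0883). None of the 4 was called at 18 h, where 25.5% of all genes were higher and 24.8% lower. Only RRN10 was called at 24 h (31.6% and 31.4% of all genes). At 48 h RRN9, RRN10 and UAF30 were higher and RRN5 was lower (46.0% and 37.8% of all genes), with RRN10 (-0.15) and UAF30 (-0.18) turning on the spike-in scale. RRN10 read 5.26, 5.15 and 5.30 in the control at 24 h, its lowest group, against 5.73, 5.72 and 5.88 in 0.5% glucose, without overlap (0.54 ± 0.08, adjusted p = 7.92e-06). UAF30 read 5.38, 5.37 and 5.45 in the control at 12 h, its highest group, against 5.02, 4.89 and 4.72 (-0.52 ± 0.08, adjusted p = 7.89e-06). RRN5 was at -0.36 ± 0.08 at 12 h and turned to 0.04 on the spike-in scale there, and at 48 h it was at -0.51 ± 0.08, with restricted arrays at 3.35, 3.19 and 3.30 against 4.0, 3.68 and 3.70.

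At 48 h 4 of the 6 TFIIIC genes were lower in 0.5% glucose and 2 higher (37.8% and 46.0% of all genes), with a median of -0.24, and of the 2 higher ones TFC7 turned to -0.13 on the spike-in scale. TFC8, a subunit of the part that binds the B box, read 4.54, 4.35 and 4.39 in the control and 3.43, 3.82 and 3.88 in 0.5% glucose at 48 h. At 12 h it had read 4.99, 5.10 and 5.07 against 5.44, 5.49 and 5.41, and at 18 h 5.27, 5.52 and 5.27 against 5.61, 5.68 and 5.65. The restricted cultures held the higher level first and the lower one at the end, at 0.39 ± 0.09 (adjusted p = 0.000318), 0.30 ± 0.09 (adjusted p = 0.00643) and, at 48 h, -0.72 ± 0.09 (adjusted p = 9.75e-08). The call at 24 h (0.22 ± 0.09, adjusted p = 0.0286) was lost on leaving out any of 3 arrays.

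TFC3, the largest TFIIIC subunit and the one that contacts the B box, was higher at 48 h by 0.70 ± 0.05, with 8.77, 8.73 and 8.65 against 7.92, 8.12 and 8.0. It had been lower at 24 h (-0.28 ± 0.05). TFC7 was higher at 18 h by 0.35 ± 0.07 (5.98, 6.04 and 6.12 against 5.59, 5.77 and 5.74), at 24 h by 0.52 ± 0.07 and at 48 h by 0.36 ± 0.07. TFC4 was higher at 12 h (0.36 ± 0.06) and lower at 48 h (-0.32 ± 0.06). TFC6 was lower at 12 h (-0.22 ± 0.06, but 0.19 on the spike-in scale), 24 h (-0.34 ± 0.06) and 48 h (-0.31 ± 0.06), and TFC1 was called at 48 h alone (-0.16 ± 0.05, adjusted p = 0.00902), a call lost with array weights (adjusted p = 0.0595) or without restricted replicate 3 (adjusted p = 0.0508).

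On the deposited scale neither TFIIIB gene was higher at any time. BRF1, the TFIIB-related subunit, read 7.36, 7.73 and 7.82 in the control at 12 h, 7.69, 7.75 and 7.78 at 18 h, 7.74, 7.67 and 7.70 at 24 h and 7.46, 7.70 and 7.59 at 48 h. In 0.5% glucose it read 7.43, 7.40 and 7.38, then 7.53, 7.40 and 7.49, then 7.47, 7.45 and 7.45, and 7.62, 7.52 and 7.61. The restricted arrays were a little lower at the first 3 times, overlapping the control at 12 h, and overlapped it at 48 h. The differences in order of time were -0.23 ± 0.08, -0.27 ± 0.08, -0.25 ± 0.08 and 0.00 ± 0.08 (adjusted p = 0.99 at 48 h). On the spike-in scale BRF1 turned to 0.17 at 12 h and 0.02 at 24 h and lost its call at 18 h (-0.11, adjusted p = 0.246). At 48 h BRF1 was lower on that scale (-0.49, adjusted p = 6.81e-06, or 0.0456 with each array's own control mean). The 12 h call was lost without control replicate 2 (adjusted p = 0.0652) or 3 (adjusted p = 0.114). BDP1 was lower at 18 h (-0.28 ± 0.10), 24 h (-0.39 ± 0.10) and 48 h (-0.36 ± 0.10). The 18 h call of BDP1 was lost on leaving out any of 4 of the 6 arrays compared, with adjusted p from 0.0527 to 0.0846. On the spike-in scale its calls at 18 h (-0.12, adjusted p = 0.302) and 24 h (-0.12, adjusted p = 0.264) were lost. By the group means of the spike-ins BDP1 was higher at 12 h (0.43, adjusted p = 0.000538), but it was not called there with each array's own control mean.

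MAF1, the repressor of RNA polymerase III, read 7.63, 7.65 and 7.67 in the control at 12 h, 8.10, 8.14 and 8.12 at 18 h, 8.28, 8.24 and 8.20 at 24 h and 8.09, 8.26 and 8.13 at 48 h. In 0.5% glucose it read 7.65, 7.62 and 7.57, then 7.99, 7.86 and 7.80, then 8.03, 8.01 and 7.95, and 7.77, 7.84 and 7.89. The glucose levels overlapped at 12 h and were apart later, with the restricted arrays below. The differences were -0.24 ± 0.05 at 18 h (adjusted p = 0.000561), -0.24 ± 0.05 at 24 h (adjusted p = 0.000327) and -0.33 ± 0.05 at 48 h (adjusted p = 4.13e-06). Relative to the spike-in group means MAF1 was higher at 12 h (0.37, adjusted p = 9.66e-07), was not called at 18 h (-0.08, adjusted p = 0.196), turned to 0.03 at 24 h and was at -0.82 at 48 h. With each array's own control mean MAF1 was not called at 12 h. Maf1 is controlled chiefly by phosphorylation, which the arrays do not measure.

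**Figure D3:**
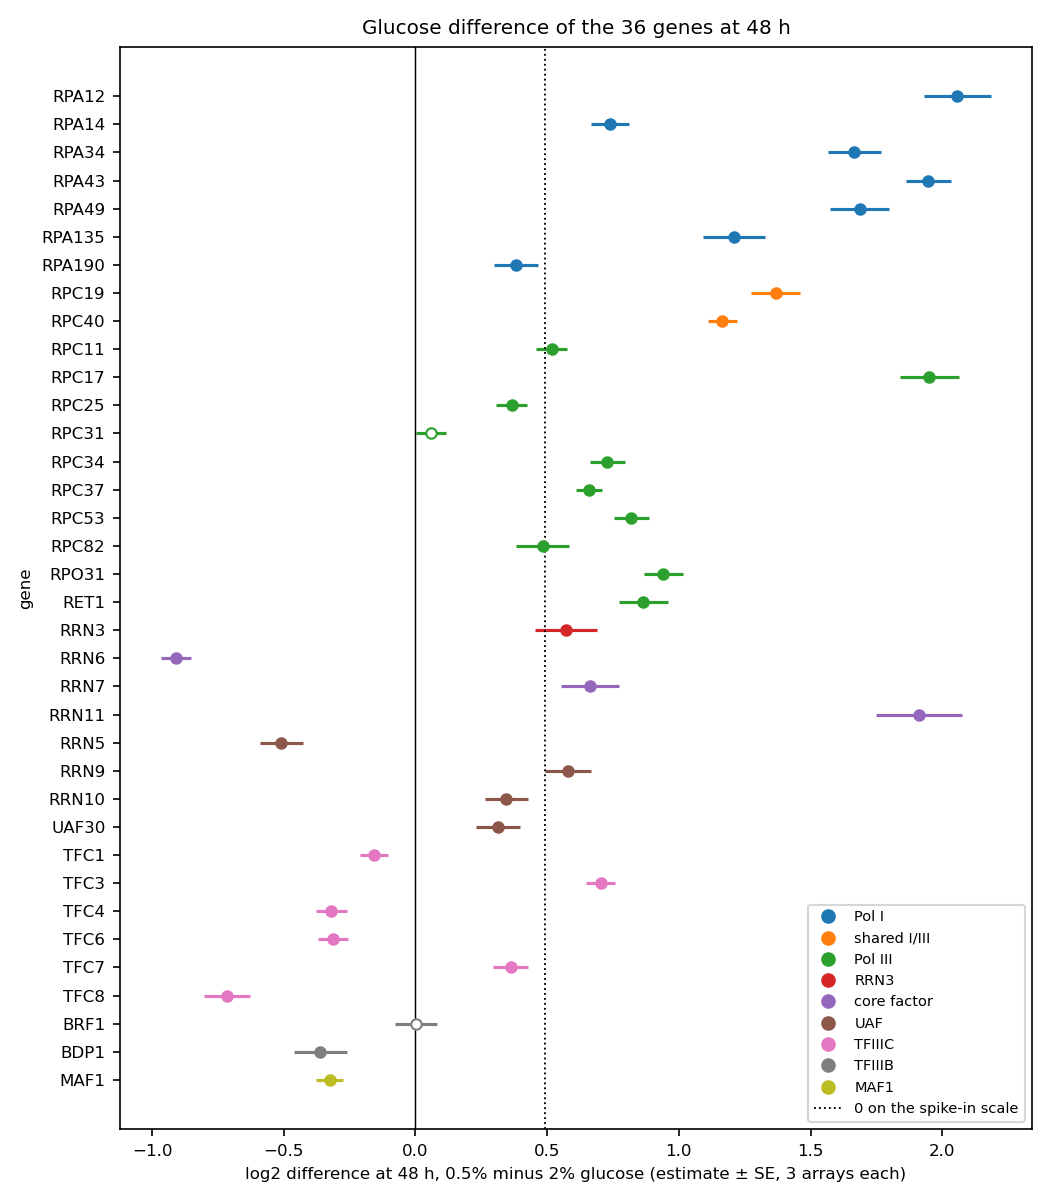
Difference at 48 h, 0.5% minus 2% glucose (log2, horizontal axis; bars are standard errors, 3 arrays per group), for the 36 genes in rows coloured by complex; filled points passed the test, open ones did not, and the dotted line is 0 on the spike-in scale. All 7 RNA polymerase I subunits lie above 0, from 0.38 to 2.06, with RPA190 below the dotted line, whereas 4 of 6 TFIIIC genes and MAF1 lie below 0.

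The steps in time give how relative levels changed between harvests in each culture. The differences at 12 h were already present at the first harvest, so no step shows where they arose. From 12 to 18 h in 2% glucose, 17 of the 36 genes rose and 11 fell, where 30.5% of all genes rose and 37.9% fell. RPA135 rose by 1.58 ± 0.12 and RPA49 by 1.20 ± 0.11, 5 of 7 RNA polymerase I subunits rose, and RRN3 (-0.58 ± 0.12) and RPC17 (-0.54 ± 0.11) fell most. In 0.5% glucose over the same hours 7 rose and 8 fell (30.0% and 30.2% of all genes), and no RNA polymerase I subunit rose. RRN11 (-0.73 ± 0.16) and RPC19 (-0.72 ± 0.09) fell most there, while RPC53 (0.48 ± 0.07) and RRN5 (0.34 ± 0.08) rose most. On the spike-in scale 1 gene rose and 18 fell over this step in 0.5% glucose.

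From 18 to 24 h the calls on the deposited scale were near the shares of all genes. In 2% glucose 9 genes rose and 7 fell (25.2% and 24.5% of all genes), and in 0.5% glucose 8 rose and 9 fell (24.6% and 24.1%), none by 2-fold. RPO31 rose in both, by 0.56 ± 0.07 and 0.36 ± 0.07. All 4 upstream activating factor genes fell in 2% glucose, RRN10 most (-0.40 ± 0.08), and RRN5, RRN9 and UAF30 fell in 0.5% glucose, RRN5 by 0.47 and RRN9 by 0.35 on the log2 scale. RRN9 read 6.04, 6.23 and 6.23 at 18 h and 5.69, 5.85 and 5.91 at 24 h in 0.5% glucose, without overlap. The genes that rose most there were TFC7 (0.43 ± 0.07), from 5.98, 6.04 and 6.12 to 6.48, 6.42 and 6.54, and RPC82 (0.39 ± 0.10), from 5.45, 5.50 and 5.42 to 5.64, 5.90 and 6.0. RRN3 rose in both, by 0.38 ± 0.12 (adjusted p = 0.0106) and 0.32 ± 0.12 (adjusted p = 0.0305). On the spike-in scale the calls in 2% glucose came to 1 higher and 19 lower and those in 0.5% glucose to 3 and 18, so the balance over these hours depends on the scale.

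From 24 to 48 h more of the 36 genes rose in 0.5% than in 2% glucose. In 2% glucose 9 genes rose and 9 fell (31.5% and 30.4% of all genes), none by 2-fold, with RRN10 (0.70 ± 0.08) and RPC19 (0.56 ± 0.09) rising most and TFC8 (-0.68 ± 0.09) and RPC25 (-0.50 ± 0.06) falling most, and on the spike-in scale 13 rose and 7 fell. In 0.5% glucose 25 rose and 7 fell (45.8% and 39.4% of all genes), 13 of the 25 by 2-fold or more, where 668 of all 5449 genes rose that far. RPC19 rose 6.19-fold (2.63 ± 0.09, adjusted p = 4.22e-17), RRN11 5.52-fold, RPO31 4.33-fold and RPC17 4.16-fold, and all 7 RNA polymerase I subunits rose, by 0.81 to 1.93. The folds of RRN11 and RPC17 start from 24 h means (2.64 and 2.98) near the background of 2.29. TFC8 fell 3.08-fold (-1.62 ± 0.09, adjusted p = 6.77e-14) and RRN5 fell by 0.76 on the log2 scale. On the spike-in scale 18 genes rose and 15 fell over this step in 0.5% glucose, and the median of the 36 was 0.20 in place of 0.84. In 2% glucose that median was 0.03 in place of -0.09.

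**Figure D4:**
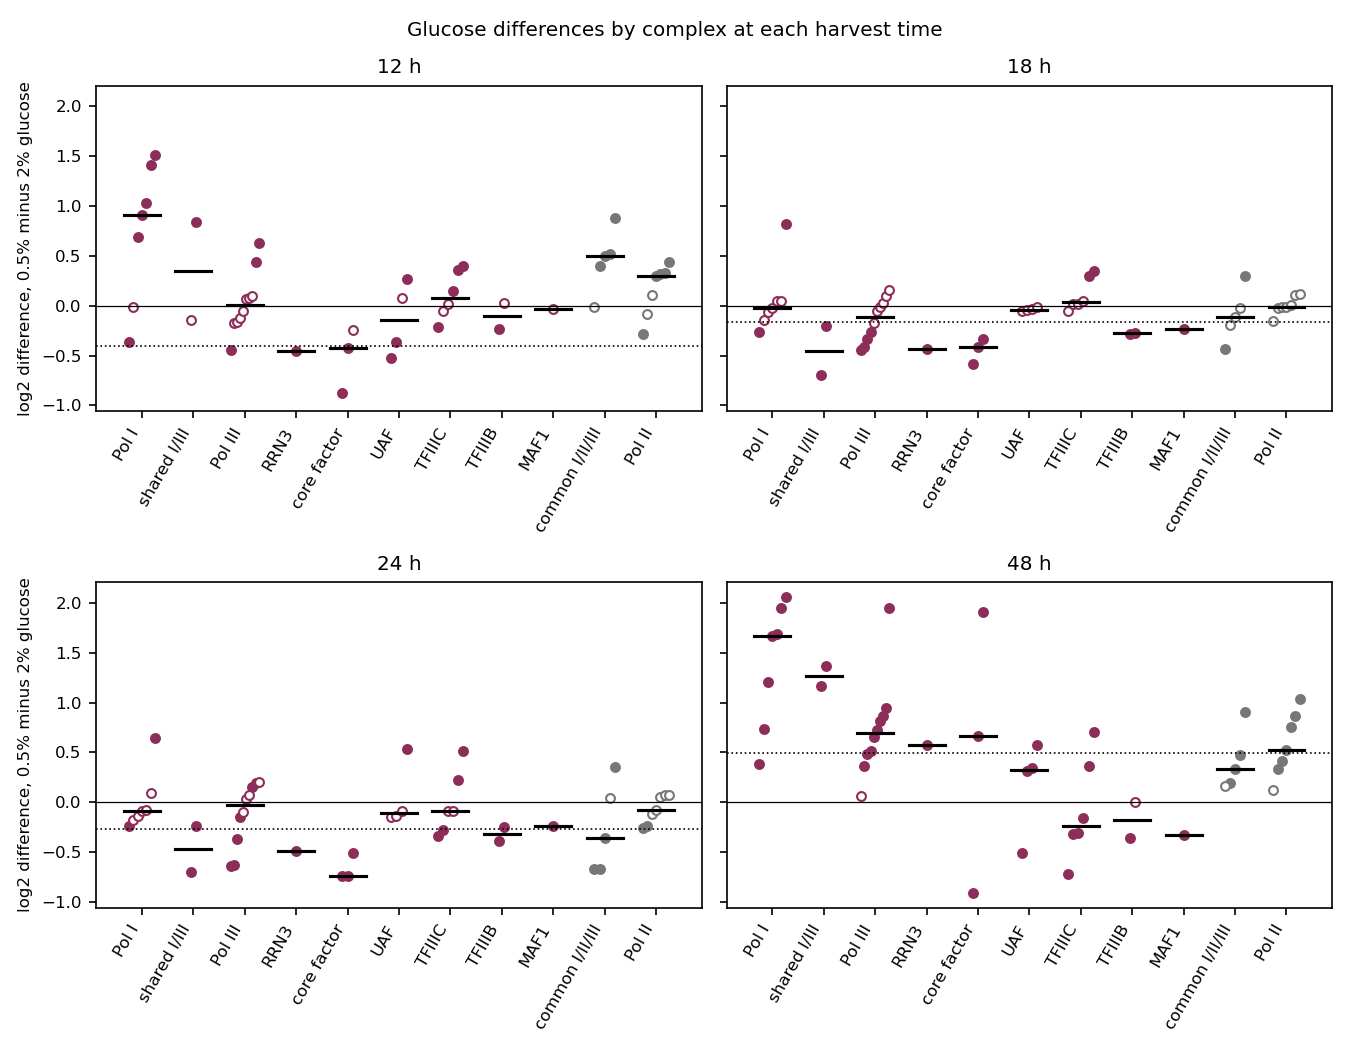
Difference of 0.5% minus 2% glucose (log2, vertical axis; 1 point per gene, filled where called) for each complex at 12, 18, 24 and 48 h; black bars are medians, grey points are the common and RNA polymerase II subunits, and the dotted line is 0 on the spike-in scale. The RNA polymerase I subunits have a median of 0.91 at 12 h and 1.67 at 48 h, and the TFIIIC genes a median of -0.24 at 48 h.

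As a description over 8 group means, which share their arrays and normalization, 5 genes correlated above 0.9 with the median of the other members, RPA12 most (r = 0.947), and 10 correlated below 0, TFC8 (r = -0.88), TFC1 (r = -0.851) and RRN5 (r = -0.833) most. Without that group no gene lay above 0.9 over the 7 remaining means, and 16 lay below 0.

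Genes around the machinery were counted as whole lists. Of all genes, 32.2% were called higher and 41.2% lower at 12 h, and 25.5% and 24.8% at 18 h. The shares were 31.6% and 31.4% at 24 h and 46.0% and 37.8% at 48 h. Of the 5 subunits common to all nuclear polymerases, 4 were higher in 0.5% glucose at 12 h and 4 at 48 h, and at 24 h 1 was higher and 3 were lower. RPB5 was the common subunit that differed most at 12 and 48 h (0.88 ± 0.07 and 0.90 ± 0.07), and RPC10 was lower at 18 h (-0.43 ± 0.07) and 24 h (-0.66 ± 0.07). Of 7 RNA polymerase II subunits, 4 were higher and 1 lower at 12 h, none was called at 18 h, 2 were lower at 24 h and 6 were higher at 48 h, when their median was 0.52 and RPB7 was at 1.03 ± 0.05. The median at 48 h was thus above that of all genes (0.08) for RNA polymerases I, II and III alike. The spike-in scale moves all genes by the same amount, so these medians stayed above that of all genes (-0.41) at 1.18 for I, 0.03 for II and 0.20 for III, and the common subunits came to -0.16. The median of the RNA polymerase II subunits at 24 h turned from -0.07 to 0.19.

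The t-UTPs, processome proteins that associate with rDNA and early ribosomal RNA, had 4 of 7 genes higher at 12 h, none called at 18 h, 1 higher and 2 lower at 24 h, and 6 higher and 1 lower at 48 h, with a median of 1.45. Of all genes, 32.2% were higher at 12 h, 31.6% higher and 31.4% lower at 24 h, and 46.0% higher and 37.8% lower at 48 h. UTP8 was at 0.96 ± 0.10 at 12 h and 1.81 ± 0.10 at 48 h. Among 7 other rDNA and ribosomal RNA gene factors, 5 were higher at 48 h, including the replication fork barrier protein FOB1 (1.42 ± 0.09) and the nucleolar protein NET1 (0.56 ± 0.05). HMO1, an rDNA-binding HMG-box protein, was lower at 12 h (-0.50 ± 0.05), 18 h (-0.36 ± 0.05) and 24 h (-0.49 ± 0.05). These single-gene values are on the deposited scale. The spike-in scale subtracts the difference of the control probe sets, -0.40, -0.16, -0.27 and 0.49 in order of time. At 48 h the median of these 7 was 0.50, or 0.01 on the spike-in scale, and that of the t-UTPs was 0.96 on the spike-in scale.

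Among 14 genes for kinases, phosphatases and an exporter that act on Maf1 or RNA polymerase III, 3 were higher and 9 lower at 12 h (32.2% and 41.2% of all genes), 2 and 4 at 18 h (25.5% and 24.8%), 4 and 3 at 24 h (31.6% and 31.4%), and 8 and 3 at 48 h (46.0% and 37.8%). The counts at 18 and 24 h are near those shares. TPK3, a protein kinase A catalytic subunit, was lower at 18 h (-0.40 ± 0.08) and 24 h (-0.59 ± 0.08). The phosphatase gene PPH22 was higher at 18 h (0.40 ± 0.06) and 24 h (0.45 ± 0.06) and lower at 48 h (-0.80 ± 0.06), when PPH3 was higher (1.22 ± 0.08). Of 19 genes for transfer RNA processing and export, 8 were higher and 6 lower at 12 h, 7 and 3 at 18 h, 10 and 2 at 24 h, and 13 and 1 at 48 h, the splicing endonuclease subunit SEN34 at 1.18 ± 0.09 at 12 h and the exporter LOS1 at 1.42 ± 0.06 at 48 h. At 48 h the medians were 0.18 for the regulators and 0.36 for transfer RNA processing, and they turned to -0.31 and -0.13 on the spike-in scale; the regulators' median at 12 h turned from -0.20 to 0.20.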

How the data were processed

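The deposited table holds log2 values of 10928 probe sets on 24 arrays of total RNA, made by the authors with Partek, per the submitters' processing notes. The base was inferred from the values: the highest, 12.57, is 6079 as a power of 2 but 287708 as a power of e, above the 65535 a 16-bit scanner can record. Sorted columns differ by at most 0.0095, as after quantile normalization. The number of arrays limits the precision.

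Probe sets were named from the platform annotation: 5498 of 7245 annotated ones were S. cerevisiae's, giving 5449 genes, and for 47 genes with several the one with the highest mean was kept. limma 3.58.1 (R 4.3.3) was fitted to 8 group means over all 24 arrays, with Benjamini-Hochberg adjustment within each comparison; the code was tested on simulated data. Members and lists were chosen with earlier results of these data known. Members given array by array are a fixed panel (RPA190, RPA135, RPO31, RET1, RRN3, BRF1, MAF1) and the 2 highest and 2 lowest called members per comparison, with a few arrays of others added after their values were seen; up to 2 genes per other list and comparison were named. Promoter motifs were not analysed here.

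Alternatives were other scalings, a filter on dim genes, limma options, array weights, averaged probe sets, only the arrays compared, each array left out, and the replicate number as a block. Replicates with the same number deviated together (every residual correlation over 0.1) in 4 comparisons: glucose at 12 h (0.212, 0.138, 0.109), at 18 h (0.307, 0.229, 0.364), at 24 h (0.368, 0.117, 0.36), and the step from 12 to 18 h in 2% glucose (0.456, 0.148, 0.3); this pairing comes from the data, since the labels give only the number.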

Additional observations from a re-analysis of the deposited data

Results flagged for a closer look

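For 34 of the 36 genes the F test found that the glucose effect differed between the 4 harvest times, as it did for 91.7% of all genes. For 16 genes the effect was called higher at 1 time and lower at another, a count not made over all genes. The following gaps between the highest and lowest called log2 difference are given as values. Among the polymerase I and shared subunits the gap was 1.10 for RPA14, 1.27 for RPA190, 2.07 for RPC19 and 1.40 for RPC40. Among the polymerase III subunits it was 1.15 for RPC11, 0.58 for RPC31, 0.99 for RPC34, 1.10 for RPC37 and 1.58 for RPO31. Among the initiation factors it was 1.06 for RRN3, 1.54 for RRN7, 2.65 for RRN11, 0.84 for UAF30, 0.98 for TFC3, 0.68 for TFC4 and 1.11 for TFC8. Groups of 3 arrays are too small to test for single outlying arrays.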

How the results depend on the processing

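Of 360 differences (36 genes, 10 comparisons), 220 were called. Repeated quantile normalization, centring, the dim filter, averaged probe sets, limma's trend and robust options, array weights, only the arrays compared and the replicate block turned no called difference; with the replicate block no call was lost, 7 were gained and the F test count stayed 34. The spike-in scale turned 23 called differences. By group means it lost 44 calls and gained 69, and by each array's own mean it lost 129 and gained 5. Its control probe sets differed between groups with errors of 0.11 to 0.26, so it is imprecise. The cause was not tested. Subtracting the group means of the control probe sets gave (higher and lower genes) 27 and 1 at 12 h, 9 and 6 at 18 h, 13 and 6 at 24 h and 16 and 10 at 48 h; 1 and 19 from 18 to 24 h in 2% glucose; 1 and 18, 3 and 18, and 18 and 15 for the steps in 0.5% glucose. Subtracting each array's own mean, which adds its error, gave 12 and 0, 1 and 0, 3 and 0, and 9 and 9 at the 4 times; 6 and 0, 0 and 1, and 3 and 0 for the steps in 2% glucose; 0 and 6, 0 and 0, and 12 and 12 for those in 0.5% glucose; and 22 genes by the F test. Member medians turned to 0.10 at 18 h, 0.13 at 24 h, and -0.20 and 0.030 for the later steps in 2% glucose. Called differences turned at 12 h for RPA14 (0.038), RRN5 (0.043), TFC6 (0.19) and BRF1 (0.17); at 24 h for RPA190 (0.028), RPC31 (0.12), RPC40 (0.034), BRF1 (0.019) and MAF1 (0.028); at 48 h for RPA190 (-0.11), RPC25 (-0.12), RPC82 (-0.0074), RRN10 (-0.15), UAF30 (-0.18) and TFC7 (-0.13); from 18 to 24 h in 2% glucose for RPC11 (-0.060) and RPC37 (-0.11); and in 0.5% glucose from 12 to 18 h for RPC34 (-0.033) and from 24 to 48 h for RPC34 (-0.25), RRN9 (-0.24), RRN10 (-0.12), UAF30 (-0.27) and TFC7 (-0.47).

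Leaving out 1 array turned no call, and the higher and lower counts ranged over 10 to 12 and 9 to 11 at 12 h, 3 to 4 and 12 to 14 at 18 h, 3 to 7 and 15 to 16 at 24 h, and 26 and 7 to 8 at 48 h. For the steps they ranged over 17 to 18 and 7 to 10, 7 to 10 and 4 to 7, and 9 to 10 and 8 to 10 in 2% glucose, and over 4 to 6 and 7 to 8, 6 to 9 and 6 to 8, and 24 to 25 and 7 in 0.5% glucose; the F test gave 33 to 35. Counts moved by over 1.5 times without 2% glucose 24 h replicate 2 or 3 (3 higher at 24 h), without 2% glucose 18 h replicate 2 (7 fell from 12 to 18 h and 4 from 18 to 24 h), without 2% glucose 24 h replicate 2 (4 fell from 18 to 24 h), and without 0.5% glucose 12 h replicate 1 or 2 (4 rose from 12 to 18 h).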
